A study of Mus musculus with 24 samples.

Results

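Zygotes of 2 mouse knockouts were compared directly, Cnot6l-/- against a group labelled Btg4-/-, over all genes whose mean reached 1 FPKM (fragments mapped per kilobase of transcript, relative to all mapped fragments) in either group. Of the 23235 genes in the table, 6951 met this rule. RNA had been sequenced from wild-type (WT), Cnot6l-/- and Btg4-/- mice on a C57BL/6 background at postnatal day 21, as oocytes at the germinal vesicle stage (GV), as oocytes cultured to the first (MI) or second (MII) meiotic division, and as zygotes. Each of these 12 groups had 2 libraries. The comparison rests on 2 Cnot6l-/- and 2 Btg4-/- zygote libraries, and 2 WT zygote libraries give a reference level. Zygotes of all 3 genotypes came from mated females 24 h after the ovulation hormone hCG and were held in KSOM medium, a culture medium for embryos. GV oocytes were taken 48 h after PMSG, a hormone that makes follicles grow, and MI and MII oocytes after 8 h and 16 h of culture. The labels describe neither allele, do not say what genotype the fathers had, and disagree on the number of cells in a library, with 100 in one place and 2 in another.

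CNOT6L is one of the deadenylases of the CCR4-NOT complex. This complex removes the poly(A) tails of mRNA and so starts its decay. BTG4 belongs to the BTG/Tob family of adaptor proteins, which bind the CAF1 deadenylases of that complex, and it is made in the egg during meiotic maturation. A fully grown oocyte does not transcribe, so the egg and early zygote live on stored maternal mRNA, most of which is removed before the embryo's own genes take over. The comparison asks whether zygotes without one or the other of these 2 proteins were left with the same maternal transcripts. FPKM sums differ between these libraries and their scaling is not stated, so what a level is relative to is not established, and fewer cells and less RNA per cell cannot be told apart. The labels do not say whether libraries came from separate animals, so a p-value here covers the spread of the libraries alone, which may be technical.

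The targeted genes were read first. Cnot6l (chromosome 5, 96505816 to 96591009, minus strand, mm9) had 6.15 and 4.92 FPKM in the 2 Cnot6l-/- zygote libraries, 40.25 and 12.05 in the Btg4-/- libraries and 31.62 and 7.07 in WT. Both Cnot6l-/- libraries lay below the other 4. The log2 difference of -1.83 ± 0.65 (SE) from the Btg4-/- group missed the threshold as deposited (limma, Benjamini-Hochberg adjusted p = 0.069) and passed after median-ratio scaling (adjusted p = 0.019). Btg4 (chromosome 9, 50924106 to 50927805, plus strand) had 954.3 and 1609.1 FPKM in Cnot6l-/- zygotes, 1205.08 and 764.77 in zygotes labelled Btg4-/- and 773.33 and 553.86 in WT. These values overlap, so the transcript level does not check the Btg4-/- label, and that group is named here by its label.

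Summed over all genes, FPKM came to 87577 and 130389 in Cnot6l-/- zygotes, 180847 and 111442 in zygotes labelled Btg4-/-, and 76038 and 49930 in WT. The sums of the 2 knockouts overlap. Their ratio was 0.746, with an exact two-sided permutation p of 0.667 where the smallest possible is 0.333. The first Btg4-/- library and the second Cnot6l-/- library were each the larger of their pair, and leaving out one or another library moves counts below by over 1.5 times. All 12 oocyte and zygote markers were detected (Zp1 to Zp3, Gdf9, Bmp15, Nlrp5, Ooep, Tle6, Padi6, Npm2, Zar1 and Dppa3), with summed levels of 2696 to 5033 FPKM in the 4 libraries. Of 21 cumulus and granulosa cell markers 1 reached 1 FPKM, and 5 were at 0 in all 4 libraries. Their summed level was 6.74 to 7.57 FPKM in Cnot6l-/- and 2.73 to 5.35 in Btg4-/- zygotes. Of 18 sperm markers 2 and of 16 blood and immune markers 1 reached 1 FPKM, with sums of 3.92 to 10.2 and 0.57 to 3.63 FPKM.

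Cnot6l-/- zygotes held less of many transcripts than zygotes labelled Btg4-/-, and more of a much smaller set. Of the 6951 genes 1310 were lower and 155 higher, which is 18.8% and 2.23% (limma on log2(FPKM + 1), two-sided, adjusted p under 0.05). Over all 10884 genes tested in the series the shares were 12.8% and 1.71%. The median log2 difference was -0.28, with 4721 genes below 0 and 2230 above. In each of the 1465 called genes the 2 libraries of one group lay apart from those of the other, as they did in 38% of all 6951 genes in the lower and 8.43% in the higher direction. A difference of at least 1 on the log2 scale was reached by 960 of the lower and 115 of the higher genes. Depth is unknown, because FPKM do not carry read counts.

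**Figure D1:**
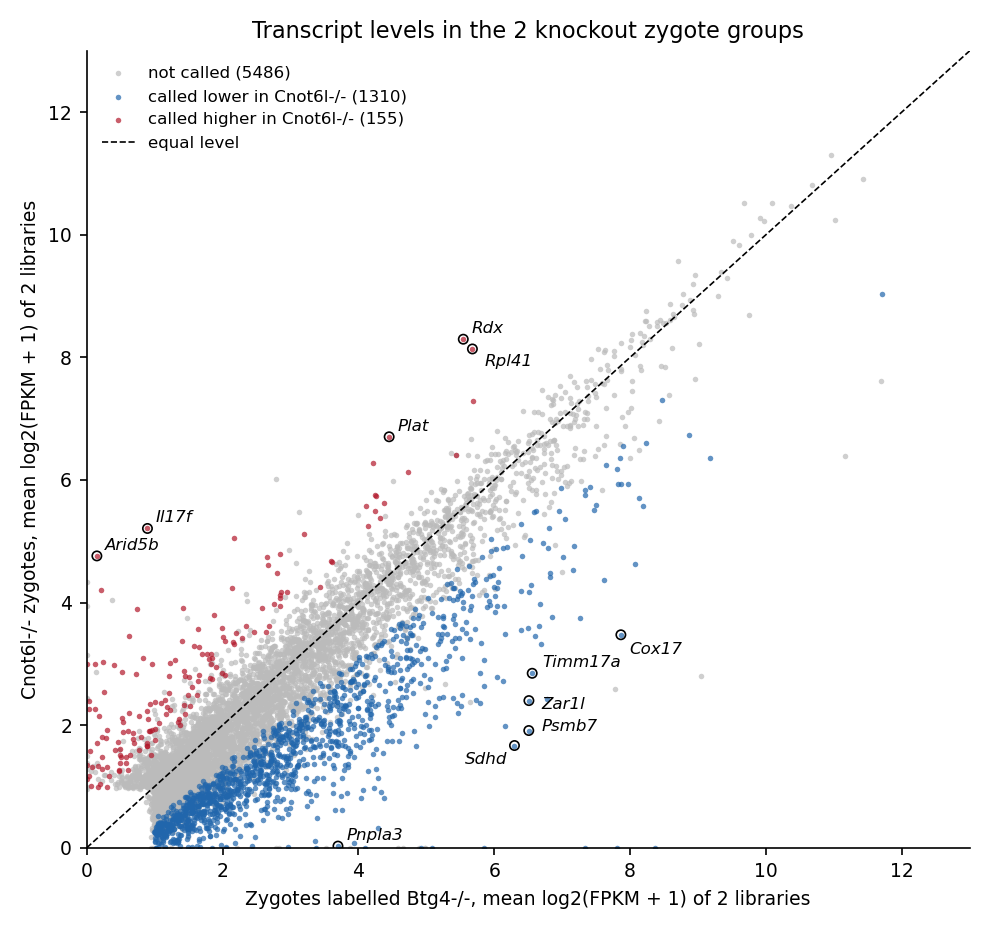
Mean level of 6951 genes in zygotes labelled Btg4-/- (horizontal) and in Cnot6l-/- zygotes (vertical), both as the mean log2(FPKM + 1) of 2 libraries, with called genes in colour and the dashed line at equal level. The 1310 blue genes lie below the line and include Cox17, Psmb7 and Sdhd near the low end of the vertical axis, while the 155 red genes include Rdx and Rpl41.

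The size of these 2 sets depends on the scale and on single libraries. Scaling each library by its median ratio gave 1437 lower and 580 higher genes, with a median of -0.11, and scaling to equal sums gave 1168 lower and 741 higher, with the median at 0.03. Under both scalings 1075 of the 1310 and 155 of the 155 were still called in the same direction. Without the first Cnot6l-/- library 540 genes were lower, without the first Btg4-/- library 639, and without the second Cnot6l-/- or the second Btg4-/- library 82 and 78 were higher. In all 4 of these fits 457 of the 1310 and 58 of the 155 genes were called. A gene can also meet the floor of 1 FPKM through 1 group alone. Of 5438 genes at 1 FPKM or more in both groups 787 were lower and 87 higher (14.5% and 1.6%), of 1201 at that level only in the Btg4-/- group 523 were lower, and of 312 at that level only in Cnot6l-/- 68 were higher. At the floor, Abl1, Arl8a and Hey1 stood just inside with a higher group mean of 1 FPKM, and Arhgap19, Ccnj and Dppa4 just outside with 0.995.

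The 10 genes furthest lower in Cnot6l-/- zygotes included Sdhd and Cox17 for respiration, Eif3m for protein synthesis and Psmb7 for protein breakdown. In the first 7 genes described here the difference between the knockouts at GV did not pass. Sdhd (chromosome 9, 50404445 to 50411954, minus strand), which encodes a membrane anchor subunit of succinate dehydrogenase, had 1.8 and 2.61 FPKM in Cnot6l-/- zygotes, 90.01 and 67.01 in zygotes labelled Btg4-/- and 5.33 and 1.72 in WT. The Btg4-/- libraries stood far above the other 4, and the Cnot6l-/- libraries lay within the WT range (log2 difference -4.63 ± 0.33 SE, adjusted p = 2.1e-07). Part of this was present at MII, with a difference of -2.01 (adjusted p = 0.00065). Psmb7 (chromosome 2, 38443566 to 38499426, minus strand), which encodes a catalytic subunit of the proteasome, had 2.52 and 3.03, 114.79 and 70.57, and 4.95 and 1.43 FPKM in the same order. The pattern was that of Sdhd (-4.60 ± 0.41, adjusted p = 1.3e-06). Cox17 (chromosome 16, 38347085 to 38352849, plus strand), whose product delivers copper to cytochrome c oxidase, had 7.29 and 13.91 FPKM in Cnot6l-/- and 254.29 and 211.66 in Btg4-/- zygotes, against 2.53 and 4.1 in WT. Here both Cnot6l-/- libraries lay above both WT libraries and far below the Btg4-/- ones (-4.39 ± 0.34, adjusted p = 3.4e-07).

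Zar1l, which resembles the maternal-effect gene Zar1, and the translation initiation factor gene Eif3m also had the Btg4-/- libraries far above the other 4. Zar1l (chromosome 5, 151309644 to 151320734, minus strand) had 2.86 and 6.23 FPKM in Cnot6l-/- and 104.1 and 78.06 in Btg4-/- zygotes (-4.11 ± 0.33, adjusted p = 5.2e-07), and Eif3m had 2.57 and 3.45 against 97.64 and 51.02 (-4.17 ± 0.38, adjusted p = 1.8e-06). In WT zygotes Zar1l had 9.22 and 3.9 FPKM and Eif3m 3.74 and 1.5, so the Cnot6l-/- and WT values overlap in both. Timm17a, a subunit of the translocase that draws proteins into the mitochondrial matrix, had 5.35 and 7.15 FPKM in Cnot6l-/-, 122.12 and 71.18 in Btg4-/- and 15.05 and 3.25 in WT zygotes. Its Cnot6l-/- libraries lay inside the WT range (-3.71 ± 0.44, adjusted p = 3.3e-05). Ccdc58, a gene named for its coiled coil, had 3.58 and 5.34 against 173.33 and 68.63 FPKM (-4.35 ± 0.59, adjusted p = 0.0001). These 7 genes kept their call in all 11 alternatives tried, with adjusted p-values of at most 0.0041 when a library was left out.

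A further 3 of the 10 leading lower genes were nearly absent from Cnot6l-/- oocytes already at GV. Pnpla3, a gene for a lipid droplet protein, had 0.01 and 0.03 FPKM in Cnot6l-/- zygotes, 14.58 and 9.83 in Btg4-/- and 12.13 and 13.34 in WT. The Cnot6l-/- level was near 0 and the 2 other genotypes overlapped. At GV Pnpla3 stood at 0.16 ± 0.07 FPKM (SD, n = 2) in Cnot6l-/- and 88.5 ± 2.34 in Btg4-/-, so the log2 difference was -6.27 there and -3.67 ± 0.28 in zygotes (adjusted p = 2.5e-07). The splicing factor gene Cdc5l, at 0.45 and 0.08 against 23.57 and 14.47 FPKM in zygotes (-3.96 ± 0.32, adjusted p = 5.2e-07), and Manba, for a mannosidase of the lysosome, at 0.06 and 0.06 against 18.25 and 11.2 (-3.85 ± 0.28, adjusted p = 2.1e-07), had log2 differences of -4.55 and -5.53 at GV.

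Transcripts higher in Cnot6l-/- zygotes were led by 2 kinds of gene. The first kind was already higher at GV. Arid5b (chromosome 10, 67558341 to 67741474, minus strand), which encodes a DNA-binding subunit of a histone demethylase, had 21.72 and 31.36 FPKM in Cnot6l-/- zygotes, 0.09 and 0.13 in Btg4-/- and 0.07 and 2.87 in WT. Both Cnot6l-/- libraries stood above the other 4 (4.61 ± 0.57, adjusted p = 4.7e-05), and at GV the log2 difference was 3.72. Il17f, a cytokine gene, had 32.04 and 40.4 against 0.9 and 0.82 FPKM (4.31 ± 0.34, adjusted p = 3.4e-07). The peroxisomal carrier gene Slc25a17 had 27.84 and 37.62 against 4.97 and 2.41 (2.89 ± 0.36, adjusted p = 4.7e-05). At GV their differences were 1.43 and 1.30 and had passed, with 83.1 ± 6.49 and 124 ± 5.46 FPKM in Cnot6l-/- against 31.1 ± 11.2 and 50.9 ± 16.9 in Btg4-/- oocytes (SD, n = 2). Pdia6, which encodes a protein disulphide isomerase of the endoplasmic reticulum, and Ints9, a subunit of the Integrator complex, belonged here too, with zygote differences of 1.94 ± 0.30 (adjusted p = 0.00037) and 2.1 ± 0.24 (adjusted p = 2.5e-05) after differences of 1.59 and 0.83 at GV.

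In the second kind, Rdx, Plat and Rpl41, the difference at GV did not pass. Rdx (chromosome 9, 51856046 to 51896843, plus strand) encodes radixin, which ties actin to the plasma membrane. It had 277.7 and 353.14 FPKM in Cnot6l-/- zygotes, 65.06 and 31.96 in Btg4-/- and 86.53 and 65.22 in WT, so both Cnot6l-/- libraries lay far above the rest (2.75 ± 0.35, adjusted p = 6.4e-05). At GV it had 633 ± 23.9 against 558 ± 203 FPKM (SD, n = 2; adjusted p = 0.71) and at MII 379 ± 79.8 against 244 ± 65.2 (adjusted p = 0.30). From MII to the zygote Rdx fell by 2.36 ± 0.35 on the log2 scale in the Btg4-/- group (adjusted p = 0.0023), against -0.26 ± 0.35 in Cnot6l-/- (adjusted p = 0.60), and the zygote difference exceeded that at MII by 2.11 ± 0.50 (adjusted p = 0.0092).

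Plat, the gene for tissue plasminogen activator and a well-known case of cytoplasmic polyadenylation in the mouse oocyte, had 83.8 and 127.18 FPKM in Cnot6l-/- and 20.73 and 21.07 in Btg4-/- zygotes (2.25 ± 0.41, adjusted p = 0.0012), after 363 ± 45.5 and 350 ± 95.7 at GV. Rpl41, for a very small ribosomal protein, had 200.73 and 391.56 against 60.86 and 41.41 FPKM (2.46 ± 0.43, adjusted p = 0.00089). The groups do not overlap in either gene, and at GV neither difference passed (adjusted p = 0.92 and 0.64). Brf2, for a factor of RNA polymerase III, had 13.59 and 48.23 against 4.92 and 5.71 FPKM (2.09 ± 0.50, adjusted p = 0.0090). Brf2 is placed in neither kind, since its level at GV is not given here. Its call was lost without the second Cnot6l-/- library (adjusted p = 0.14) or without the first Btg4-/- library (adjusted p = 0.071).

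**Figure D2:**
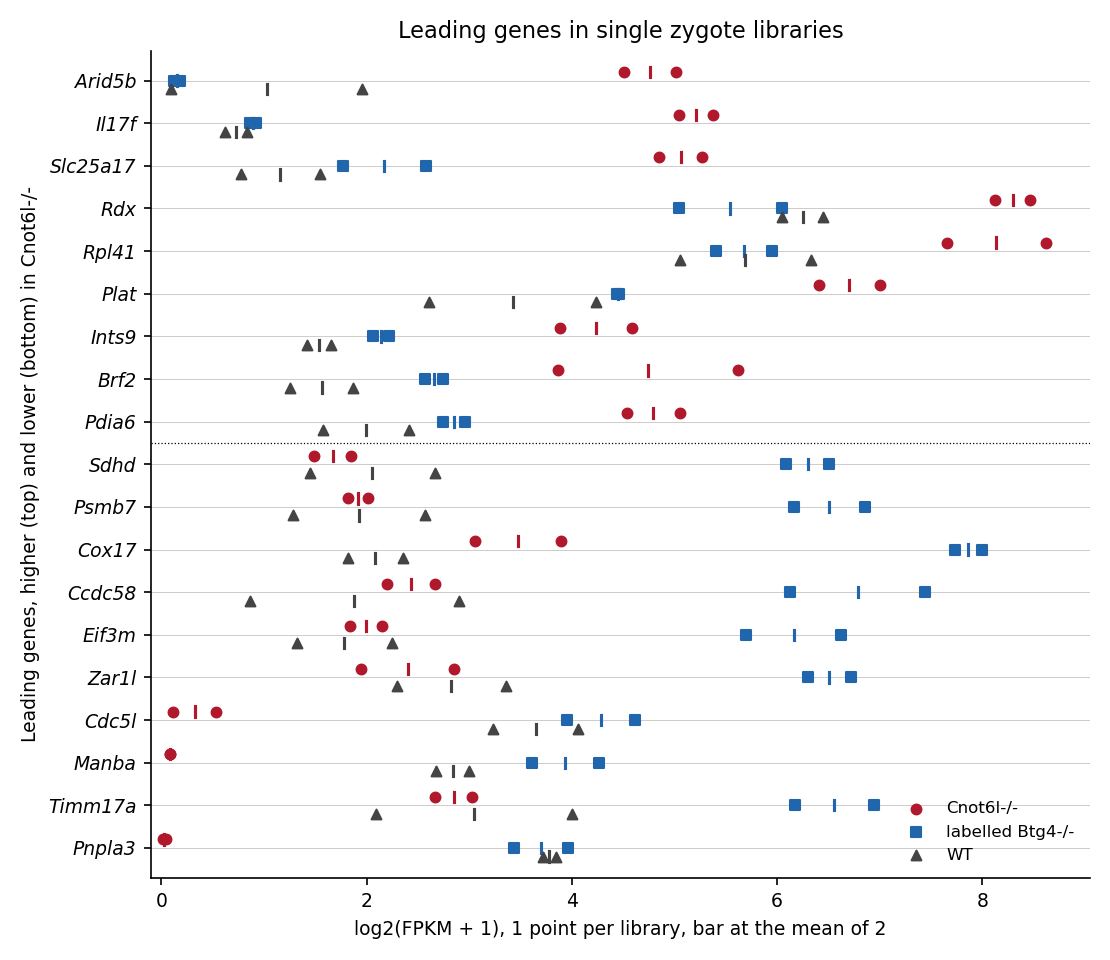
Level of 9 leading higher and 10 leading lower genes as log2(FPKM + 1) in single zygote libraries, with 2 points per genotype and a bar at their mean. Red circles (Cnot6l-/-) lie right of blue squares (labelled Btg4-/-) in the upper 9 genes and left of them in the lower 10, and in Sdhd, Psmb7, Ccdc58, Eif3m and Timm17a the grey WT triangles lie on both sides of the red circles.

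Sdhd and Rdx lie within 3 Mb of Btg4 on chromosome 9. In that interval 23 genes met the floor, of which 5 were lower and Rdx was the 1 higher gene. Within 3 Mb of Cnot6l on chromosome 5 none of 14 genes was called by limma, and within 10 Mb 4 of 57 were lower and 1 higher, against 17 and 3 of 84 around Btg4. The lower shares around Btg4 are close to the 18.8% over all members. Sdhd and Rdx did not differ between the knockouts at GV (adjusted p = 0.89 and 0.71). The part of linked sequence in these differences was not tested.

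The ends of the 3′ untranslated regions are shown for 4 leading genes of each direction, because the cytoplasmic polyadenylation element (CPE) and the polyadenylation hexamer near the transcript end are the sequences through which maternal mRNA is known to gain a poly(A) tail. Capitals mark the CPE, searched as TTTTAT and its variant TTTTAAT, and the hexamer, searched as AATAAA, on the transcript strand. All windows are on mm9, taken from the longest 3′ UTR of the gene in gencode vM1, and are written 5′ to 3′ along the transcript. The first 4 are higher in Cnot6l-/- zygotes and were shown because each holds a CPE. Counted from the end of the 3′ UTR, the CPE shown starts at base 9 in Il17f, 90 in Slc25a17, 91 in Rdx and 92 in Plat. In Slc25a17, Rdx and Plat this is near the edge of the 100 bases searched. Of the other leading higher genes looked at, Pdia6 held the hexamer only and Arid5b and Ints9 neither motif in those bases. Among the leading lower genes not shown, Cox17 and Manba held neither motif, Pnpla3 the hexamer and Ccdc58 a CPE. The last 4 are lower and show the hexamer, since no CPE was found in the last 100 bases of their 3′ UTRs. The windows lie at chr1:20767232-20767261 (minus strand), chr15:81149417-81149446 (minus), chr9:51896746-51896775 (plus), chr8:23893222-23893251 (plus), chr9:50404446-50404475 (minus), chr2:38443556-38443585 (minus), chr17:45528841-45528870 (minus) and chr1:137198122-137198151 (minus), in the order given.
Il17f: attaattatatAATAAAatatTTTTAATtc
Slc25a17: gaattgTTTTATattacaaaaaaaagcctt
Rdx: gcataaTTTTATgttgtacaagtaaattac
Plat: tttataTTTTAATctattttagtttttact
Sdhd: tttttaAATAAAatattatataatgaaaat
Psmb7: aAATAAATAAATAAAaagacaaaaaactta
Cdc5l: gagtaaacccttgAATAAAaagaacatgtg
Timm17a: tcagacAATAAAaggcttctgggacttaac

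Over all members these sequences were not shared evenly between the 2 sets. A CPE stood in the last 100 bases of the 3′ UTR in 46 of 134 genes called higher in Cnot6l-/- (34.3%), in 142 of 1173 called lower (12.1%) and in 1400 of all 6321 with such a UTR (22.1%). The lower genes had shorter 3′ UTRs, with a median of 608 bases against 828 in the higher genes and 1029 in all. Their 3′ UTRs also held more G and C, with a median of 46.1% against 43.6% in the higher genes and 43.1% in all. The motifs searched here are rich in A and T, and shares at like base composition were not compared. Among 3′ UTRs of 100 to 500 bases the CPE share was 37.9% in higher, 12.9% in lower and 21.4% in all genes. Between 1000 and 2000 bases it was 39.5%, 12% and 22.2%. Above 2000 bases it was 29.6%, 19% and 23.2%, so the order was kept in these length classes and in the class of 500 to 1000 bases (30%, 7.46% and 21.7%). Of the lower genes whose difference also exceeded that at MII, 7.18% had a CPE at the end. Ccdc58 was an exception among the leading lower genes, with TTTTAT in its last 100 bases. The hexamer AATAAA, searched after the other motifs had been seen, stood in the last 100 bases of 70.1% of higher, 59.4% of lower and 66.3% of all genes. The AU-rich core TATTTAT, which can overlap TTTTAT, was there in 5.22%, 2.73% and 4.32%, and the Pumilio motif TGTANATA in 5.97%, 4.26% and 5.2%. The search used the annotated transcript end, which need not be the end used in the zygote, and a match is a sequence match and not a measured site.

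Genes for the mitochondrial protein import machinery held the largest share of lower calls among the lists with 20 or more members. Of 24 members 14 were lower and none was higher (58.3% lower against 18.8% over all members), with a median log2 difference of -1.14. Pmpcb, a subunit of the peptidase that trims imported proteins, had 0.85 and 0.55 FPKM in Cnot6l-/- and 7.42 and 5.11 in Btg4-/- zygotes (-2.08 ± 0.24, adjusted p = 2.7e-05). Of 68 mitochondrial ribosomal protein genes 33 were lower and 2 higher, Mrps24 and Mrps36, with a median of -0.99. Mrpl48 was the lowest of them at 14.25 and 24.17 against 119.89 and 70.8 FPKM (-2.25 ± 0.44, adjusted p = 0.0021). Of 81 nuclear genes listed under oxidative phosphorylation 26 were lower and 4 higher (median -0.57). Cox7c, a small subunit of cytochrome c oxidase, fell furthest after Sdhd with 10.68 and 35.81 against 203.48 and 186.78 FPKM (-3.24 ± 0.50, adjusted p = 0.00036). The higher genes were Uqcr11 of complex III (1.94 ± 0.42, adjusted p = 0.0045), Ndufa12 of complex I (1.28 ± 0.29, adjusted p = 0.0066), Ndufa11 and Cox4i2. The calls of Uqcr11 and Ndufa12 were lost without the second Cnot6l-/- library (adjusted p = 0.052 and 0.065) and without the second Btg4-/- library (adjusted p = 0.059 and 0.074).

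Genes of the cytosolic ribosome moved in both directions. Of 84 members 34 were lower and 5 higher (40.5% and 5.95%, against 18.8% and 2.23% over all members). The median log2 difference was -0.76. Rpl18 was the lowest at 3.11 and 6.67 FPKM in Cnot6l-/- against 36.91 and 55.06 in Btg4-/- zygotes (-3.04 ± 0.41, adjusted p = 0.0001). Besides Rpl41 the higher ones included Rpl38, with 30.74 and 37.15 against 11.13 and 6 FPKM (1.92 ± 0.37, adjusted p = 0.0020), Rps19, with 5.96 and 8.48 against 1.09 and 1.64 (1.79 ± 0.38, adjusted p = 0.0038), and Rpl9. Rpl38, Rpl9, Rps19, Ndufa11 and Cox4i2 were named after their values were seen. Ribosomal protein genes have close copies in the genome, and reads of one gene may have been counted for a copy, so values of single genes are uncertain.

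The lists for protein synthesis and breakdown also held more lower than higher genes. The lower shares were 25.9% in the translation factor, 38.1% in the tRNA synthetase, 37.2% in the proteasome and 32% in the chaperone list. Over all members 18.8% were lower and 2.23% higher. Of 54 translation factor genes 14 were lower and 1 higher. Eif1ax, an initiation factor gene, had 3.69 and 9.06 against 82.71 and 50.73 FPKM (-3.26 ± 0.50, adjusted p = 0.00031). Eif2a, which encodes an alternative initiator tRNA carrier, was the 1 higher gene (1.10 ± 0.32, adjusted p = 0.029), a call lost without either Cnot6l-/- library (adjusted p = 0.13 and 0.093) or the second Btg4-/- library (adjusted p = 0.19). Of 21 tRNA synthetase genes 8 were lower, such as the arginyl enzyme gene Rars with 2.97 and 3 against 44.81 and 22.54 FPKM (-3.04 ± 0.33, adjusted p = 1.3e-05). Of 43 proteasome genes 16 were lower and none higher (median -0.79). After Psmb7, the deubiquitinase subunit gene Psmd14 stood out with 1.62 and 0.85 against 31.87 and 10.62 FPKM (-3.15 ± 0.47, adjusted p = 0.00025). Of 50 chaperone genes 16 were lower and none higher. Cct5, a subunit of the chaperonin that folds actin and tubulin, had 4.35 and 7.16 against 80.59 and 59.05 FPKM (-3.41 ± 0.26, adjusted p = 3e-07), and Hspa8, the constitutive HSP70 chaperone, 7.79 and 10.34 against 117.71 and 87.96 (-3.36 ± 0.27, adjusted p = 5.2e-07). In these 2 genes the Cnot6l-/- libraries lay near or below WT, which had 4.6 and 3.89 FPKM of Cct5 and 14.45 and 18.57 of Hspa8. Hspa8 had been lower in Cnot6l-/- at GV as well, by -1.14 (adjusted p = 0.0089).

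**Figure D3:**
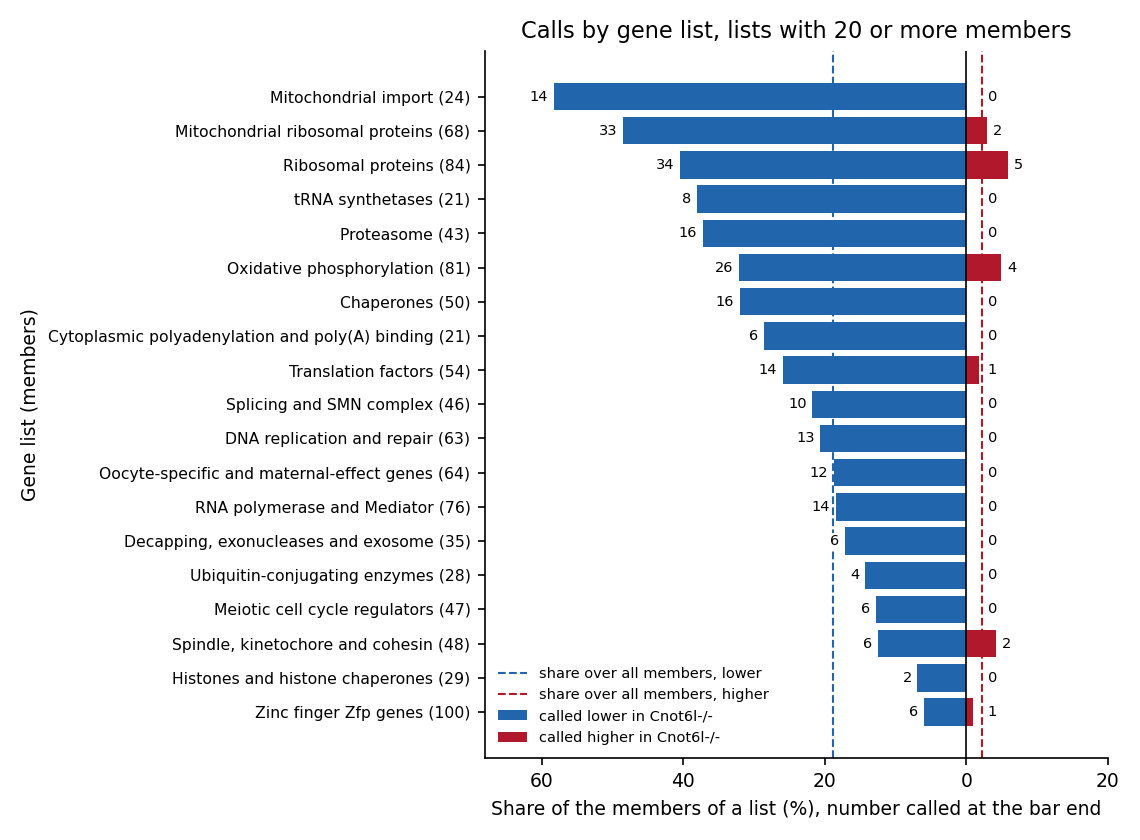
Share of members called lower (blue, left) and higher (red, right) in Cnot6l-/- zygotes for 19 gene lists of 20 or more members, with the number called at each bar end and dashed lines at the shares over all 6951 genes, 18.8% and 2.23%. Mitochondrial, ribosomal, tRNA synthetase and proteasome lists reach furthest left, and the zinc finger, histone and spindle lists end right of the blue line.

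Lists tied to the oocyte and to chromosomes lay near or under the background share, 18.8% lower over all members. Of 64 oocyte-specific and maternal-effect genes 12 were lower and none higher. They included Zar1l and 2410004A20Rik, a symbol of Khdc3 in the subcortical maternal complex, with 6.14 and 19.08 against 77.16 and 104.23 FPKM (-2.92 ± 0.55, adjusted p = 0.0016). Padi6 of the same complex had 56.1 and 98.9 against 190.77 and 208.28 FPKM (-1.41 ± 0.44, adjusted p = 0.042). Padi6 did not pass after median-ratio scaling (adjusted p = 0.12), nor without the first Cnot6l-/- library (adjusted p = 0.32) or either Btg4-/- library (adjusted p = 0.15 and 0.13). Of 63 DNA replication and repair genes 13 were lower, such as Gins1 of the replicative helicase with 1.73 and 2.55 against 23.29 and 9.91 FPKM (-2.39 ± 0.39, adjusted p = 0.00058). Of 76 RNA polymerase and Mediator genes 14 were lower, led by Med7 (-2.78 ± 0.64, adjusted p = 0.0067), which did not pass without the first Btg4-/- library (adjusted p = 0.15) or the second Cnot6l-/- library (adjusted p = 0.051).

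Of 47 meiotic cell cycle regulators 6 were lower and none higher. Mos, the kinase gene of MII arrest, had 42.43 and 91.15 FPKM in Cnot6l-/- zygotes, 16.83 and 28.18 in Btg4-/- and 3.09 and 14.64 in WT (1.47 ± 0.50, adjusted p = 0.060). The 3 groups were in that order without overlap, but the difference did not pass. Of 48 spindle, kinetochore and cohesin genes 6 were lower and 2 higher. The checkpoint kinase genes Bub1 (-1.85 ± 0.49, adjusted p = 0.017) and Ttk (-1.81 ± 0.38, adjusted p = 0.0033) were lower. Their partner Bub1b, with 37.79 and 61.38 against 18.55 and 20.95 FPKM (1.25 ± 0.35, adjusted p = 0.024), and the kinetochore gene Ndc80 (1.06 ± 0.33, adjusted p = 0.037) were higher. All 4 calls rest on single libraries. Without the first Btg4-/- library Bub1 and Ttk had adjusted p-values of 0.27 and 0.069 and Bub1b 0.14, without the second Btg4-/- library Bub1b had 0.054 and Ndc80 0.30, without the second Cnot6l-/- library Bub1, Bub1b and Ndc80 had 0.077, 0.18 and 0.21, and without the first Bub1 and Ndc80 had 0.091 and 0.059. Of 100 Zfp zinc finger genes 6 were lower and 1 higher. Zfp57, a guardian of imprints, had 60.22 and 108.7 against 225.25 and 235.06 FPKM (-1.50 ± 0.31, adjusted p = 0.0029; 0.054 without the first Cnot6l-/- library), and Zfp708 had 7.51 and 6.28 against 0.57 and 0.11 (2.58 ± 0.44, adjusted p = 0.00079).

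Most genes listed for the machinery that removes mRNA met the floor. They were 11 of 12 deadenylase, 7 of 8 non-catalytic CCR4-NOT, 5 of 6 BTG and Tob and 35 of 46 decapping, exonuclease and exosome genes. Of 22 decay recruiter genes 11 met it. Of 11 deadenylase genes, 7 non-catalytic CCR4-NOT subunit genes, 5 BTG and Tob adaptor genes and 11 genes of mRNA decay recruiters none was called by limma, with 2, 2, 0 and 1 at an unadjusted p under 0.05. Cnot6, the paralog of Cnot6l, had 2.16 and 2.16 FPKM in Cnot6l-/- against 5.22 and 2.34 in Btg4-/- zygotes (-0.53 ± 0.44, adjusted p = 0.54). Cnot7, whose product is a CAF1 deadenylase bound by BTG proteins, had 69.45 and 47.36 against 95.41 and 24.94, with full overlap (0.22 ± 0.63, adjusted p = 0.92). Of 35 decapping, exonuclease and exosome genes 6 were lower, such as Exosc2 (-1.66 ± 0.39, adjusted p = 0.0074), which did not pass without the second Cnot6l-/- library (adjusted p = 0.078) or the first Btg4-/- library (adjusted p = 0.068). Of 21 genes of cytoplasmic polyadenylation and poly(A) binding 6 were lower, among them Cpsf4l, a relative of a cleavage and polyadenylation subunit, with 5.01 and 11.3 against 24.54 and 25.74 FPKM (-1.60 ± 0.32, adjusted p = 0.0025; 0.051 without the first Cnot6l-/- library). Of 28 genes with Ube2 symbols, listed as ubiquitin-conjugating enzymes, Ube2a, Ube2b, Ube2cbp and Ube2q1 were lower and none was higher. Of 29 histone and histone chaperone genes Npm2 and Chaf1a were lower, and of 46 splicing genes 10. Over all members 18.8% were lower. The shares were 17.1% in the decapping, 28.6% in the polyadenylation, 14.3% in the ubiquitin-conjugating, 6.9% in the histone and 21.7% in the splicing list. The floor was met by 8 of 48 zygotic genome activation genes and 11 of 25 stress genes. Of these 8 and 11 none was called by limma, with 3 and 0 at an unadjusted p under 0.05. Cyp19a1, the aromatase gene and the 1 cumulus cell marker at 1 FPKM, had 4.32 and 4.99 against 2.89 and 1.45 FPKM (0.87 ± 0.28, adjusted p = 0.044). It was also higher at GV, by 1.39, and its zygote call was lost without either Cnot6l-/- library (adjusted p = 0.13 and 0.17) or the second Btg4-/- library (adjusted p = 0.31). The part of cumulus cells in the differences was not tested.

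Both scalings kept the medians of the mitochondrial import, mitochondrial ribosomal, ribosomal, tRNA synthetase, proteasome, oxidative phosphorylation, translation factor and chaperone lists below 0, from -1.17 to -0.19. The medians of the oocyte-specific, DNA replication, RNA polymerase, decapping, splicing, ubiquitin-conjugating and Zfp lists were below 0 as deposited and after median-ratio scaling and turned to between 0.03 and 0.10 at equal sums. Those of the meiotic and spindle lists, -0.18 and -0.12 as deposited, were 0.04 and 0.11 after median-ratio scaling. At equal sums 12 oocyte-specific genes were higher and 11 lower. Among the deadenylases 2 were higher and Cnot6l was lower after either scaling, 2 of the BTG and Tob genes (Btg4 among them) and 1 of the decay recruiters were higher, and 2 of the other CCR4-NOT subunits were lower after median-ratio scaling. Of the 46 microRNA and other small RNA genes in the comparison 10 were lower and none higher, and 37 were listed at 0 in at least 1 of the 4 libraries. Their log2 differences ran from -8.37, the lowest of all members, to 4.33 and were not read further.

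The 2 sets had different histories before the zygote, as the other 18 libraries show. The sets were chosen on the zygote libraries of both knockouts, so their zygote levels are a description. The GV, MI, MII and WT libraries entered the choice through the estimate of the spread and the floor on tested genes, not through the difference itself. Genes called higher in Cnot6l-/- zygotes had a median level of 18.9 FPKM at GV in Cnot6l-/-, against 8.38 in Btg4-/- and 8.08 in WT oocytes. They stayed above both others at MI (14.8, 6.6 and 4.35), MII (10.4, 2.71 and 2.06) and in the zygote (5.95, 1.37 and 0.91). At GV 76 of the 155 were called higher in Cnot6l-/- than in Btg4-/- and 1 lower (2.95% of all members were higher and 9.05% lower, against 5.85% and 12.4% of all genes tested). At MI 61 were higher and none lower by limma (1.65% and 4.4% of members, 3.59% and 6.46% of all genes tested), and at MII 111 were higher and none lower (10.4% and 2.33%, against 11% and 1.77%). At GV, MI and MII together 52 of the 155 were called higher.

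Genes called lower in Cnot6l-/- zygotes had like medians in all 3 genotypes at GV, with 25.4 FPKM in Cnot6l-/-, 31.4 in Btg4-/- and 29 in WT. At MI both knockouts stood at 21.4 and 28.1 FPKM and WT at 3.88, and at MII the knockouts at 5.44 and 4.9 and WT at 0.91. Between MII and the zygote the medians of the 2 knockouts parted. The median went to 1.41 FPKM in Cnot6l-/- zygotes, beside 1.47 in WT, and to 5.7 in the Btg4-/- group. Of the 1310 genes 975 were called in neither direction at MII, and 131 were lower and 204 higher in Cnot6l-/- eggs. These are 10% and 15.6%, against 2.33% and 10.4% of all members. At MI 175 had been lower and 3 higher (13.4% and 0.229%, against 4.4% and 1.65% of members). At GV 234 had been lower and 7 higher (17.9% and 0.534%, against 9.05% and 2.95%). Part of the set thus differed before the zygote. In WT, 85.7% of the 1310 genes fell by at least 2 on the log2 scale from GV to the zygote. The share was 48.4% in the higher set and 53.4% in all members. The WT medians at GV also differed, with 29 FPKM in the lower set, 8.08 in the higher set and 14.9 in all members. On the log2(FPKM + 1) scale a low gene can fall by less, and shares at like GV levels were not compared. Median changes in the lower set, the higher set and all members were -3.39, -1.89 and -2.1. A fall from GV to the zygote was called in WT in 92.8% of members and 91.1% of all genes tested. After median-ratio scaling these medians were -1.43, -0.31 and -0.18.

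**Figure D4:**
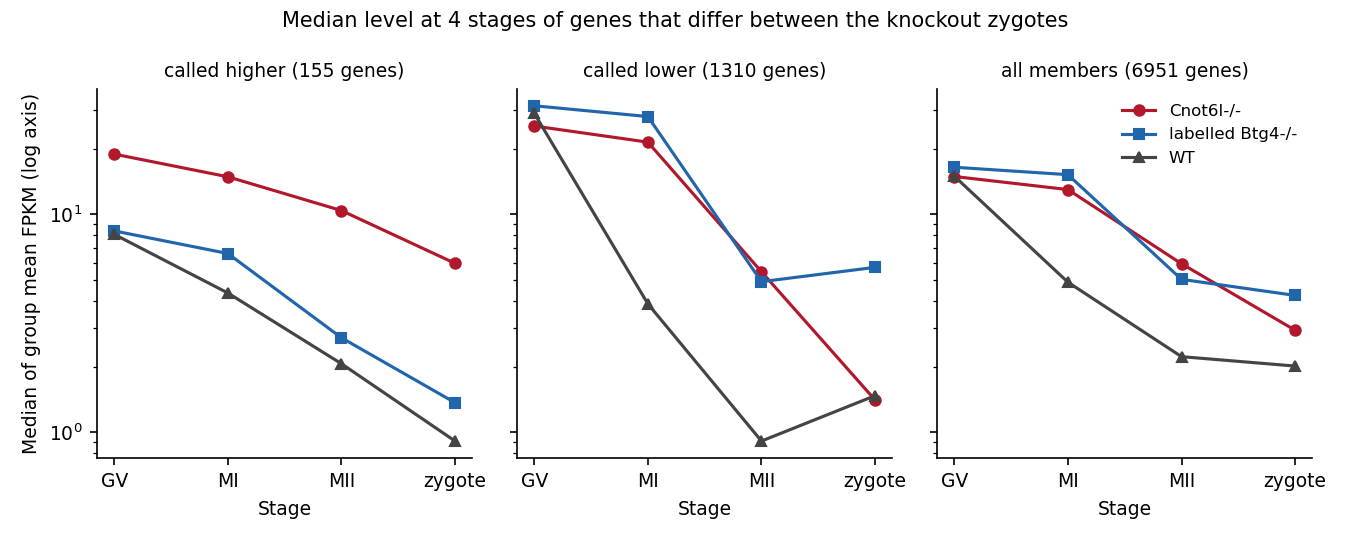
Median over genes of the group mean FPKM (log axis) at GV, MI, MII and zygote in the 155 genes called higher in Cnot6l-/- zygotes (left), the 1310 called lower (middle) and all 6951 (right), in 3 genotypes. In the left panel Cnot6l-/- is highest at all 4 stages. In the middle panel the medians of the knockouts lie near each other to MII, at 5.44 and 4.9 FPKM, and part in the zygote at 1.41 and 5.7. Medians do not show single genes, some of which were called at earlier stages.

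The change from MII to zygote was tested within each knockout, on libraries that include the zygotes above. In Cnot6l-/- 2168 of the 6951 genes fell and 7 rose (31.2% and 0.101%, against 28.7% and 0.0735% of all genes tested). In the Btg4-/- group 96 fell and 27 rose (1.38% and 0.388%, against 1.07% and 0.248%), and in WT 318 fell and 111 rose (4.57% and 1.6%, against 3.22% and 1.04%). MII eggs came from culture and zygotes from mated females, so this step is not fertilisation alone. These counts are for FPKM as deposited, and counts after scaling are not given. Summed FPKM went from 199462 and 181023 at MII to 87577 and 130389 in Cnot6l-/- zygotes. In the Btg4-/- group they went from 194890 and 140755 to 180847 and 111442. The part of these shifts in the sums in the counts was not tested. The difference between the knockouts in zygotes was below that at MII in 990 genes and above it in 5 (14.2% and 0.0719%, against 11.5% and 0.0735% of all genes tested; limma interaction, adjusted p under 0.05). Against GV it was below in 501 and above in 47 (7.21% and 0.676%, against 6.27% and 1.35%). Without the first Cnot6l-/- library the 990 became 615, and the 501 became 199, while without the first Btg4-/- library the 501 became 164.

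Genes of the ribosome and of respiration turned over between the 2 stages. Of 84 ribosomal protein genes 40 were higher and 2 lower in Cnot6l-/- than in Btg4-/- eggs at MII, with a median log2 difference of 1.04, and in zygotes 5 were higher and 34 lower, with a median of -0.76. The change in difference passed in 49. At GV none of the 84 was called and the median was -0.02. Of the 68 mitochondrial ribosomal protein genes 20 were higher and 3 lower at MII, and 34 had a lower difference in zygotes than at MII. Of the 81 oxidative phosphorylation genes 24 were higher and 2 lower at MII, and 36 had a lower difference in zygotes. The count was 18 of 43 proteasome genes, 17 of 54 translation factors and 14 of 50 chaperone genes. Over all members 14.2% had a lower difference in zygotes than at MII, and at MII 10.4% were higher and 2.33% lower.

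Rpl7a, a protein of the large ribosomal subunit, shows the crossing in single libraries. At MII it had 58.83 and 72.82 FPKM in Cnot6l-/- and 9.01 and 9.27 in Btg4-/- eggs, and in zygotes 2.79 and 7.35 against 13.42 and 12.13. The Cnot6l-/- libraries were the higher pair at MII and the lower pair in zygotes, and the difference went from 2.71 ± 0.36 to -1.29 ± 0.36, a change of -4.0 ± 0.51 (adjusted p = 8.1e-05). Ndufa9 of complex I had 32.27 and 19.27 against 3.29 and 3.1 FPKM at MII and 0.82 and 1 against 4.13 and 2.74 in zygotes (change -3.83 ± 0.38, adjusted p = 1.6e-05). Atp5g1, for the rotor ring of ATP synthase, had 52.5 and 56.95 against 8.06 and 5.82 at MII and 5.99 and 7.24 against 17.46 and 10.76 in zygotes (change -3.78 ± 0.41, adjusted p = 2.4e-05). These 3 genes were chosen after their values were seen. Their zygote differences alone are marginal. The adjusted p of Rpl7a was 0.056 after median-ratio scaling, and those of Rpl7a, Ndufa9 and Atp5g1 without the first Cnot6l-/- library were 0.30, 0.050 and 0.19 and without the first Btg4-/- library 0.13, 0.082 and 0.32; Rpl7a had 0.054 without the second Btg4-/- library and Atp5g1 0.052 without the second Cnot6l-/- library.

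**Figure D5:**
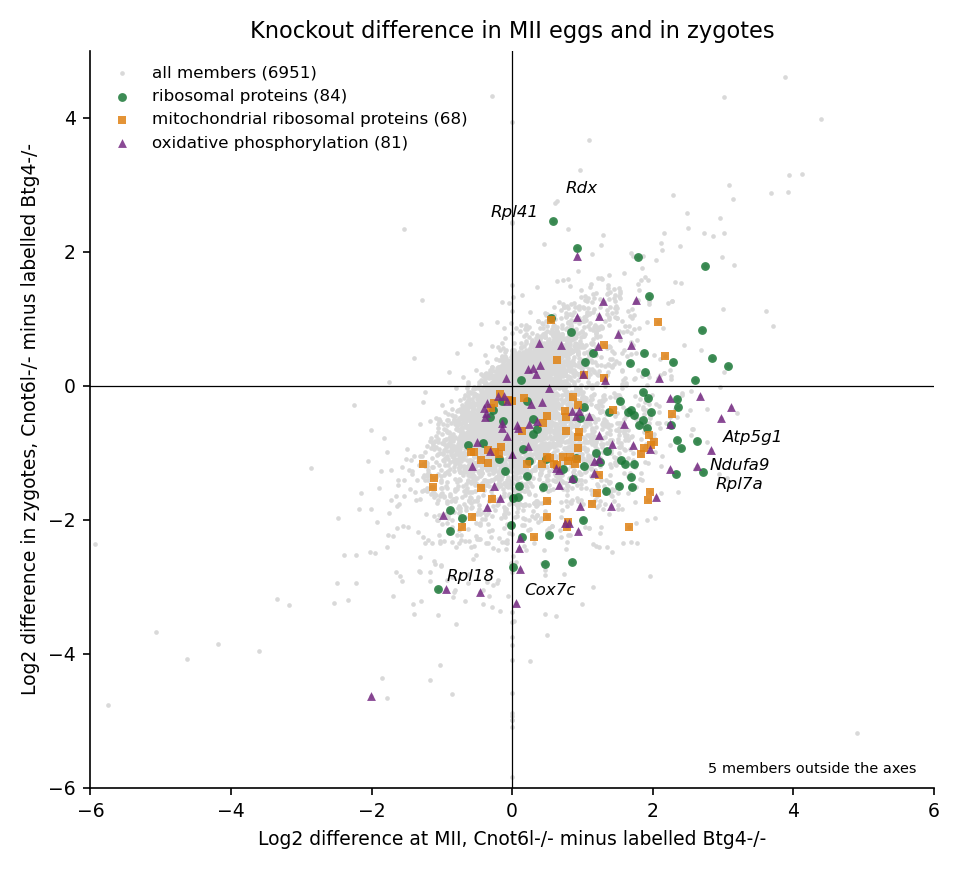
Log2 difference, Cnot6l-/- minus labelled Btg4-/-, at MII (horizontal) and in zygotes (vertical) for all 6951 genes in grey and 3 lists in colour. Rpl7a, Ndufa9 and Atp5g1 lie at the right and below 0, that is higher at MII and lower in zygotes, while Rpl41 lies above 0 in both, and 5 genes fall outside the axes.

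Cpsf4l and Arg2 followed the same course outside these lists. Cpsf4l had 85.6 and 68 FPKM in Cnot6l-/- and 20.28 and 27.81 in Btg4-/- eggs at MII, and its difference changed by -3.25 ± 0.45 (adjusted p = 0.00016). Arg2, an arginase gene that is also transcribed in early embryos, had 54.98 and 27.71 against 9.1 and 4.98 FPKM at MII and 2.36 and 3.04 against 19.4 and 5.01 in zygotes, a change of -3.95 ± 0.79 (adjusted p = 0.0027), although its zygote difference of -1.59 ± 0.56 did not pass (adjusted p = 0.068). The opposite change, a zygote difference above that at MII, was found in Rdx, Tada2a, Pnpla3, Ins2 and Slc12a8, the last 2 and Tada2a named after their values were seen. In Tada2a, for a subunit of histone acetyltransferase complexes, the knockouts had 15.52 and 12.99 against 14.16 and 11.49 FPKM at MII and 4.92 and 7.26 against 1.72 and 1.73 in zygotes (change 1.22 ± 0.31, adjusted p = 0.016). In Pnpla3, Ins2 and Slc12a8 the Btg4-/- group had been the higher at MII. The Cnot6l-/- level of Pnpla3 was near 0 at both stages, so on the log2(FPKM + 1) scale its change follows the fall of the Btg4-/- level and shows no change of ratio.

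Beside WT zygotes, the balance of higher and lower genes depended on the scale. As deposited, in Cnot6l-/- zygotes 835 of the 6951 genes were higher and 42 lower (12% and 0.604%, against 8% and 0.413% of all genes tested), and in the Btg4-/- group 2232 were higher and 1, Mtus2, lower (32.1% and 0.0144%, against 21.5% and 0.0459%). Both comparisons share the 2 WT libraries, and Mtus2 was named after its value was seen. Without the second Cnot6l-/- library 239 genes were higher in Cnot6l-/- and without the first 18 were lower, and without the first Btg4-/- library 1092 were higher and none lower in the Btg4-/- group. After median-ratio scaling 680 genes were higher and 619 lower in Cnot6l-/-, and 1074 higher and 243 lower in the Btg4-/- group. At equal sums the counts were 596 and 827 in Cnot6l-/-, with more genes lower than higher, and 781 and 631 in the Btg4-/- group. Rdx was higher than in WT by 2.04 in Cnot6l-/- (adjusted p = 0.0015), with -0.71 in Btg4-/- zygotes (adjusted p = 0.18). Psmb7 stood at -0.01 in Cnot6l-/- (adjusted p = 1) and was higher by 4.58 in Btg4-/- zygotes (adjusted p = 1.2e-06). Cox17 was higher than in WT in both, by 1.39 (adjusted p = 0.016) and 5.78 (adjusted p = 3.2e-08).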

How the data were processed

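RNA-seq of mouse oocytes and zygotes was analysed from the authors' deposited table of all 24 libraries, with 2 in each of 12 groups. The deposited values are FPKM with 2 decimals. Per the submitters' processing notes, CASAVA 1.8, TopHat2 2.0.11, Bowtie2 2.1.0, Cufflinks 2.2.1 and the build mm9 were used. How FPKM were scaled from library to library was not stated in these sources, and their sums differ. The deposited per-library tables hold lines with several records each and were left out. The MI columns were assigned to their groups only.

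The 10884 genes whose mean reached 1 FPKM in one or more groups were fitted as log2(FPKM + 1) with limma 3.58.1 under R 4.3.3 (functions lmFit and eBayes, trend on, 1 mean per group, 12 residual degrees of freedom), two-sided, with Benjamini-Hochberg adjustment over all of them. A gene was called at an adjusted p under 0.05. Fold changes on this scale understate those of low genes. Where 1 library was left out, the remaining one took the spread of the other groups. The fit was tested on simulated data. Alternatives were a pseudocount of 0.1, no filter, a floor of 5 FPKM, 2 scalings (by the median ratio over 3677 genes above 1 FPKM in all libraries, or to equal sums), fits on 4 or 6 zygote libraries, a replicate block and each library left out.

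Genes named are the 10 highest and 10 lowest log2 differences among called genes that reached 10 FPKM in the higher group and had no overlap of libraries, with a symbol that is not a predicted locus, clone or small RNA, the 2 highest and 2 lowest members of each of 28 lists, and Cnot6l, Btg4, Cnot6 and Cnot7. The text gives a subset, and 1 leading higher gene is not reported here. Members and lists were chosen with earlier results of these data known. Lists rest on gene symbols, so single members, such as Ube2cbp and Cox4nb, may have another function than the list is named for. 3′ UTRs of at least 50 bases came from gencode vM1 on mm9, 1 per gene. Python 3.11.15 was used for tables and figures.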

Additional observations from a re-analysis of the deposited data

Results flagged for a closer look

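The difference between the knockouts was not the same at each stage, by limma's interaction term with Benjamini-Hochberg adjustment. Against GV, the zygote difference of 47 genes was higher and that of 501 lower. Among the genes named, the log2 change from GV was upwards in Il17f (2.88), Rpl41 (2.80), Pnpla3 (2.60), Rdx (2.52), Rps19 (2.33), Bub1b (2.30), Rpl38 (2.18), Plat (2.17), Uqcr11 (2.09), Manba (1.68), Ndufa12 (1.48), Tada2a (1.47) and Ints9 (1.27). In Manba and Pnpla3 the Cnot6l-/- level was near 0 at both stages, so on the log2(FPKM + 1) scale this change follows the fall of the Btg4-/- level and shows no change of ratio. It was downwards in Ccdc58 (-4.77), Sdhd (-4.72), Psmb7 (-4.57), Zar1l (-4.50), Eif3m (-4.45), Cox17 (-4.27), Timm17a (-3.93), Cox7c (-3.68), Med7 (-3.48), Eif1ax (-3.30), Psmd14 (-3.25), Cct5 (-3.21), Rars (-2.78), Rpl18 (-2.68), Gins1 (-2.60), Hspa8 (-2.22), Pmpcb (-2.17), Mrpl48 (-2.15) and Cpsf4l (-1.89).

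Against MII, the zygote difference of 5 genes was higher and that of 990 lower. The log2 change from MII was upwards in Rdx (2.11), Pnpla3 (1.39) and Tada2a (1.22), and downwards in Zar1l (-4.36), Eif1ax (-4.25), Timm17a (-4.22), Rpl7a (-4.0), Arg2 (-3.95), Cct5 (-3.88), Ndufa9 (-3.83), Atp5g1 (-3.78), Psmb7 (-3.74), Cox7c (-3.29), Cpsf4l (-3.25), Cox17 (-3.23), Hspa8 (-3.19), Eif3m (-3.14), Sdhd (-2.62), Mrpl48 (-2.56), 2410004A20Rik (-2.56), Gins1 (-2.56), Psmd14 (-2.31), Rars (-2.23), Rpl18 (-1.98) and Pmpcb (-1.62). No group has the 4 libraries that a check for single outlying libraries needs.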

How the results depend on the processing

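The 155 higher and 1310 lower genes became 89 and 558 in a fit of the 4 libraries compared, and 49 and 314 in a fit of the 6 zygote libraries. With members taken from 5 FPKM, which are 3372 genes in place of 6951, they became 81 and 716. Median-ratio scaling and scaling to equal sums gave 580 and 741 higher genes. Leaving out 1 library gave 78 to 160 higher and 540 to 1374 lower genes. The median of -0.28 turned to 0.026 at equal sums and ran from -0.55 to -0.05 without 1 library, and the ratio of summed FPKM from 0.599 to 0.978. Beyond GV, the 47 higher genes became 178 and 251 under the 2 scalings, 23 from 5 FPKM and 29 to 83 without 1 library, and the 501 lower became 761 after median-ratio scaling and 164 to 738 without 1 library. Beyond MII, the 5 higher became 8 with a pseudocount of 0.1, 26 and 59 under the scalings, 3 from 5 FPKM and 4 to 12 without 1 library, and the 990 lower became 475 from 5 FPKM and 615 to 1144 without 1 library. Against WT, higher genes in Cnot6l-/- became 53 with 6 libraries and 239 to 1120 without 1 library, and lower genes 112 (pseudocount 0.1), 619 and 827 (scalings), 4 (6 libraries), 25 (5 FPKM) and 18 to 34. In the Btg4-/- group higher genes became 1074 and 781 (scalings), 538 (6 libraries), 1392 (5 FPKM) and 1092 to 2561, and lower genes 4, 243, 631, 0, 10 (replicate block) and 0 to 1. The WT medians of -1.89, -3.39 and -2.1 became -0.31, -1.43 and -0.18 after median-ratio scaling. Of 56 named genes under 11 alternatives each, 506 pairs kept direction and call, 93 lost the call, 14 gained it and 3 reversed. These 3 were Btg4, at -0.0086 without the second Cnot6l-/- library (range without 1 library up to 0.74), and Cnot7, at -0.05 without the first Cnot6l-/- library and -0.72 without the second Btg4-/- library (range up to 1.17). The counts from 5 FPKM were taken over fewer genes, 3372 in place of 6951. What caused the other shifts was not tested.

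With replicate numbers as a block in the 6 zygote libraries, 180 genes were higher and 1241 lower, against 49 and 314 in the fit of these libraries without the block. Of the 155 and 1310 genes called over 24 libraries, 112 and 1001 were among them. Deviations of same-numbered libraries correlated across genes at 0.394, 0.631 and 0.506. The labels do not say what same-numbered libraries share, and 2 numbers per group do not settle whether they are paired. The fit over 24 libraries did not use these numbers. FPKM without read counts leave depth unknown, and 2 libraries a group limit the precision.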
